A study of Mus musculus with 23 samples.

Results

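The hepatocyte identity transcription factors examined here were 9 genes, *Hnf4a*, *Nr5a2*, *Foxa1*, *Foxa2*, *Foxa3*, *Cebpa*, *Cebpb*, *Prox1* and *Onecut1*. They were picked by name, with earlier results of these data known, out of 27179 genes in the count table, of which 20380 had a read in any mouse. All 9 were found by their symbol, and all 9 had reads in each of the 15 mice. RNA was sequenced from liver tissue without visible tumors of female mice, 6 Ctrl, 6 ABpIF/+ and 3 ABpIF/F. All groups carried *Alb*-Cre, a transgene that recombines floxed alleles in cells that use the albumin promoter, and 2 floxed *Trp53* alleles (*Trp53* flx/flx), so hepatocytes of the Ctrl mice are targeted for *Trp53* deletion as well. Ctrl mice had wild-type *Braf* and *Icmt* flx/+. ABpIF/+ mice had BrafCA/+, which gives the oncogenic BRAF V600E after recombination, with *Icmt* flx/+, and ABpIF/F mice had BrafCA/+ with *Icmt* flx/flx. *Icmt* encodes the enzyme that methylates prenylated CAAX proteins, and every group carried at least 1 floxed copy of it. The genotype labels write *Braf* as +/+ for both of these groups, where the series' design text gives BrafCA/+. The study obtained only 3 ABpIF/F mice, of differing ages, and found liver tumors in all of them but in a minority of ABpIF/+ mice. The age of each sequenced mouse and the hour at which livers were taken are not given in the sources used here. The part of age or tumor stage in comparisons with ABpIF/F was therefore not tested.

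Hepatocyte identity is held by a small set of DNA-binding proteins that bind each other's promoters and, together, the enhancers of albumin, apolipoprotein, clotting factor and metabolic enzyme genes. HNF4A is the nuclear receptor at the centre of this network, the FOXA proteins open chromatin for the other factors, C/EBP proteins tune metabolism and the acute phase response, NR5A2 (LRH-1) drives bile acid and cholesterol genes, and the homeobox factors PROX1 and ONECUT1 (HNF6) act in liver development and remain in adult hepatocytes. Several are shared with other cells of the liver: FOXA and ONECUT factors with bile duct cells, PROX1 with lymphatic endothelium, and CEBPB with macrophages and granulocytes. In RNA from whole tissue, fewer cells of a type and less RNA per cell cannot be told apart.

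The gene counts of a mouse summed to 24742910 at least and 32262649 at most. *Icmt*, the targeted gene, had 27.8 to 34.7 CPM (a measure of counts relative to the TMM-scaled size of the library) in Ctrl, 27.8 to 37.4 in ABpIF/+ and 15.2 to 16.6 in ABpIF/F mice, so the ABpIF/F mice were the lowest, as labelled. A score of circadian clock genes, the mean centred log2 CPM of activators minus that of repressors, was 3.22 to 4.52 in the 3 ABpIF/F mice and 3.57 in the Ctrl mouse malpa387, but -2.10 to -0.87 in all others, so in ABpIF/+ vs ABpIF/F the clock score and the genotype cannot be told apart. The strain label of both *Braf* groups adds a further cross to a B6 and 129P2 line with *Trp53*, *Braf* and *Icmt* alleles, which the label of 5 Ctrl mice lacks. BG3 was the only Ctrl mouse with the label of the *Braf* groups, so in comparisons with Ctrl the strain and the *Braf* allele can hardly be told apart. The gene for albumin held 9.36% ± 0.962 (SD, n = 6) of counts in Ctrl, 14.2% ± 1.49 (n = 6) in ABpIF/+ and 14.9% ± 2.92 (n = 3) in ABpIF/F livers. Nothing in the labels ties samples of one group to separate litters, so p-values measure the spread between these mice.

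All 9 factors were expressed in the liver of every mouse of the 3 groups, and *Cebpa* and *Hnf4a* led in each group when levels were taken per length of exon. In Ctrl livers, *Cebpa* had 161 ± 33.7 CPM per kb of exon (mean ± SD, n = 6), *Hnf4a* 123 ± 12.8 and *Cebpb* 57.5 ± 26.7. The other 6 followed from *Foxa3*, at 16.9 ± 8.14 CPM per kb, through *Foxa2* at 10.2 ± 1.22, *Nr5a2* at 8.42 ± 2.08, *Prox1* at 6.99 ± 3.43 and *Foxa1* at 4.93 ± 0.787, to *Onecut1* at 3.83 ± 4.08. In Ctrl, only the step from *Cebpb* to *Foxa3* separated neighbours in this order without overlap between mice. In ABpIF/+ livers *Hnf4a*, at 176 ± 30.7 CPM per kb, stood above *Cebpa*, at 114 ± 19.7, with a small overlap between mice. In ABpIF/F livers *Cebpb*, at 16.9 ± 3.33 CPM per kb (n = 3), lay below *Foxa3*, at 22.0 ± 6.74, again with overlap. Neighbours whose mice did not overlap were *Cebpa* and *Cebpb*, *Foxa3* and *Foxa2*, and *Foxa2* and *Nr5a2* in ABpIF/+, and *Hnf4a* and *Foxa3*, *Foxa2* and *Nr5a2*, *Nr5a2* and *Prox1*, and *Prox1* and *Foxa1* in ABpIF/F, and all other neighbours overlapped. The orders of the 6 lower factors were *Foxa3*, *Foxa2*, *Nr5a2*, *Prox1*, *Foxa1* and *Onecut1* in each of the 3 groups.

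**Figure D1:**
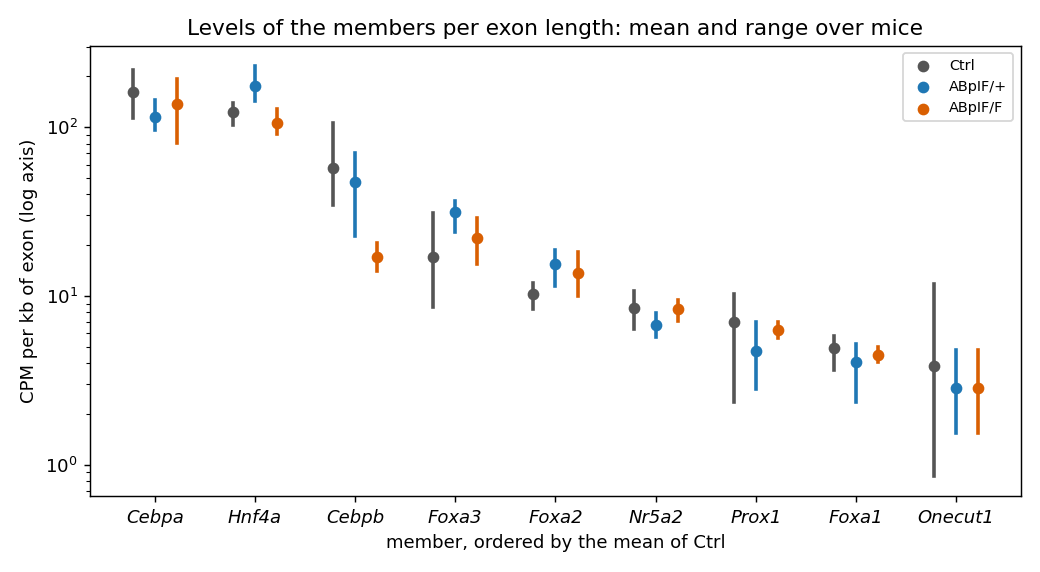
Levels of the 9 factors as CPM per kb of exon on a log axis, with a point for the mean and a line for the range over the mice of each group (6 Ctrl, 6 ABpIF/+, 3 ABpIF/F). *Cebpa* and *Hnf4a* have the highest means in every group. The *Cebpb* mean comes next in Ctrl (57.5), where only its highest mouse, BG3, reaches the *Hnf4a* range. In ABpIF/F the *Cebpb* mean (16.9) lies next to that of *Foxa3*.

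In the test across the table, none of the 9 factors passed both thresholds, an adjusted p under 0.01 and at least a 2-fold difference, in any of the 3 comparisons. The test was edgeR's quasi-likelihood F-test on the counts with Benjamini-Hochberg adjustment over all 27179 genes, and the adjusted p-values below come from it unless another test is named. Over all genes, 10.0% passed both in ABpIF/+ vs Ctrl, 6.93% in ABpIF/F vs Ctrl and 7.24% in ABpIF/+ vs ABpIF/F. Among the 12316 genes whose mean reached 1 CPM the shares were 17.6%, 12.6% and 12.2%. At an unadjusted p under 0.05, edgeR gave 5, 2 and 2 of the 9 factors, against 58.3%, 45.7% and 46.6% of those 12316 genes. DESeq2 called 0, 1 and 1 of the factors, the called one being *Cebpb* both times, where it called 11.3%, 8.25% and 9.07% of all genes. Scaling by total counts moved the median log2 fold change of the 12316 genes by -0.18 in ABpIF/+ vs Ctrl and by -0.19 in ABpIF/+ vs ABpIF/F, and the share of higher genes among those called from 46.7% to 35.1% and from 24.3% to 13.1%.

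The intervals show how large a difference these mice leave possible. The 95% interval of the log2 fold change lay within a 2-fold difference either way for 6 of the 9 factors in ABpIF/+ vs Ctrl, 5 in ABpIF/F vs Ctrl and 4 in ABpIF/+ vs ABpIF/F, and for the others a 2-fold difference was not excluded. With no limit on the fold, an adjusted p under 0.01 was reached by 2 factors in ABpIF/+ vs Ctrl (*Hnf4a* and *Foxa2*), 0 in ABpIF/F vs Ctrl and 1 in ABpIF/+ vs ABpIF/F (*Hnf4a*), where 18.4%, 10.9% and 10.9% of all genes and 36.1%, 21.4% and 20.4% of the 12316 genes did so. At an adjusted p under 0.05 the counts were 4, 1 and 2, against 47.3%, 31.8% and 32.4% of the 12316 genes. The median log2 fold change of the 9 factors was -0.29, -0.16 and 0.00073 in these comparisons, beside 0.02, -0.00077 and 0.04 for the 12316 genes. Both comparisons with Ctrl use the same 6 Ctrl mice.

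**Figure D2:**
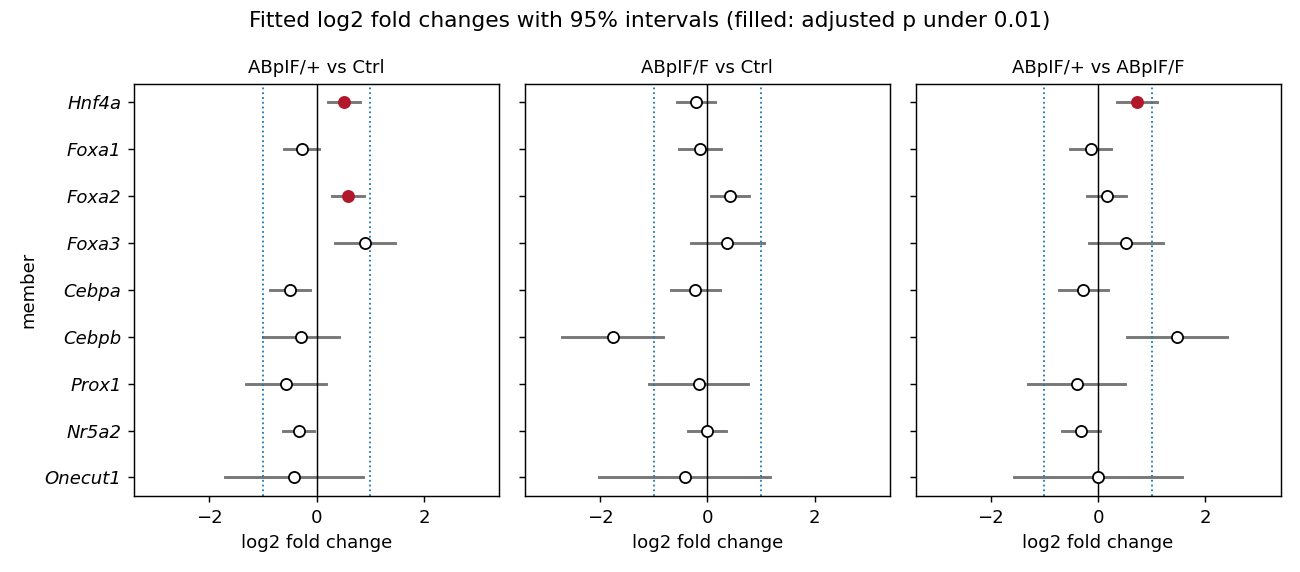
Fitted log2 fold changes of the 9 factors (points) with 95% intervals (lines) in the 3 comparisons, with dotted lines at a 2-fold difference and filled points for an adjusted p under 0.01. *Hnf4a* (0.51) and *Foxa2* (0.59) are filled for ABpIF/+ vs Ctrl, and *Hnf4a* (0.72) for ABpIF/+ vs ABpIF/F, while *Cebpb* has the largest differences, -1.76 and 1.48, with wide intervals.

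*Hnf4a* was higher in ABpIF/+ livers than in both other groups. In Ctrl its lowest, median and highest CPM were 495, 597 and 672, and in ABpIF/+ they were 694, 818 and 1108, while the ABpIF/F mice had 439, 477 and 623. All 6 ABpIF/+ mice were therefore above all 6 Ctrl and all 3 ABpIF/F mice, whereas Ctrl and ABpIF/F overlapped. Groups did not overlap for 31.3% of the 12316 genes in ABpIF/+ vs Ctrl and for 34.2% in ABpIF/+ vs ABpIF/F, and for 1 and 2 of the 9 factors. The log2 fold change was 0.51 ± 0.14 (SE) for ABpIF/+ vs Ctrl (adjusted p = 0.00789), which is 1.43-fold, and 0.72 ± 0.18 for ABpIF/+ vs ABpIF/F (adjusted p = 0.00526), which is 1.65-fold. For ABpIF/F vs Ctrl it was -0.21, with a 95% interval from -0.57 to 0.14 (adjusted p = 0.524). Over the alternatives the *Hnf4a* difference of ABpIF/+ vs Ctrl was 0.33 to 0.56, lowest with total counts, and its adjusted p was 0.000655 to 0.334, highest with the strain label as a covariate. That of ABpIF/+ vs ABpIF/F was 0.55 to 0.89, with an adjusted p from 1e-04 to 0.308, highest with the clock score as a covariate.

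*Hnf4a* (Entrez 15378) lies on the plus strand of chromosome 2 of GRCm38 from 163506808 to 163572910 and has 2 start sites in RefSeq, 40298 bases apart. The downstream start serves adult hepatocytes and the upstream one is known from fetal liver and other tissues. Counts per gene pool both, so which start the transcripts came from was not measured. Their promoters are shown since this is the factor whose ABpIF/+ mice stood apart from both other groups. Each holds 250 bases before the start and 50 after it, from RefSeq on GRCm38.p6, and capitals mark matches to the 5 motifs reported here (5′ to 3′):
*Hnf4a* upstream start, chr2:163506607-163506906, plus strand: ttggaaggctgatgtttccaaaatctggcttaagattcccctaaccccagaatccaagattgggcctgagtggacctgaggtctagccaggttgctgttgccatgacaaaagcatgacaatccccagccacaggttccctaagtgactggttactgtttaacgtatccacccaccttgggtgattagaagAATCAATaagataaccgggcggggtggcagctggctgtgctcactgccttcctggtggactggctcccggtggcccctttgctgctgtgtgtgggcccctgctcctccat
*Hnf4a* downstream start, chr2:163546905-163547204, plus strand: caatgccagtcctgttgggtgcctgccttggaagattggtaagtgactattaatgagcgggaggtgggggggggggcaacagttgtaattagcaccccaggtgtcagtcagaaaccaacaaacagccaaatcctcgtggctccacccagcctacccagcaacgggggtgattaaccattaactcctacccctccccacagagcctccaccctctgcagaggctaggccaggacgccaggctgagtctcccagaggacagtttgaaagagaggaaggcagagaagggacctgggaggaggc

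The capitals in the upstream promoter are a match to the HNF6 motif, that of the ONECUT1 protein, and the downstream promoter held none of these 5. They were searched on both strands, N standing for any base: HNF4 CAAAGTCCA, forkhead TGTTTAC, C/EBP TTGCNNAA, HNF6 ATNGATT and LRH-1 CAAGGNCA. They occurred in 0.475%, 3.65%, 10.8%, 7.42% and 6.71% of 32851 promoter windows of this length. The 9 factors had 14 windows, of which 0, 1, 1, 2 and 0 held them, the forkhead match lying in the window of *Foxa1*, the C/EBP match in one of *Nr5a2*, and the HNF6 matches in *Hnf4a* and *Foxa2*. No match says only that these letters are not in the window.

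The antisense gene *Hnf4aos* was lower in both *Braf* groups than in Ctrl. It runs on the minus strand of chromosome 2 from 163493807 to 163541720 of GRCm38 and starts 5434 bases before the downstream *Hnf4a* start. Its lowest, median and highest CPM were 2.80, 5.84 and 10.4 in Ctrl and 0.576, 1.12 and 1.47 in ABpIF/+, and the ABpIF/F mice had 0.194, 0.607 and 1.47. All mice of both *Braf* groups were below all Ctrl mice. *Hnf4aos* fell by 2.52 on the log2 scale in ABpIF/+ vs Ctrl (adjusted p = 4.2e-05) and by 3.01 in ABpIF/F vs Ctrl (adjusted p = 0.000309), while ABpIF/+ and ABpIF/F differed by 0.50 (adjusted p = 0.655). So a fall of *Hnf4aos* was seen in both *Braf* groups, and the higher *Hnf4a* only in ABpIF/+. Exons of both genes share 0 bases in the GENCODE annotation, and the strand setting of the counting is not given in the sources used here.

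**Figure D3:**
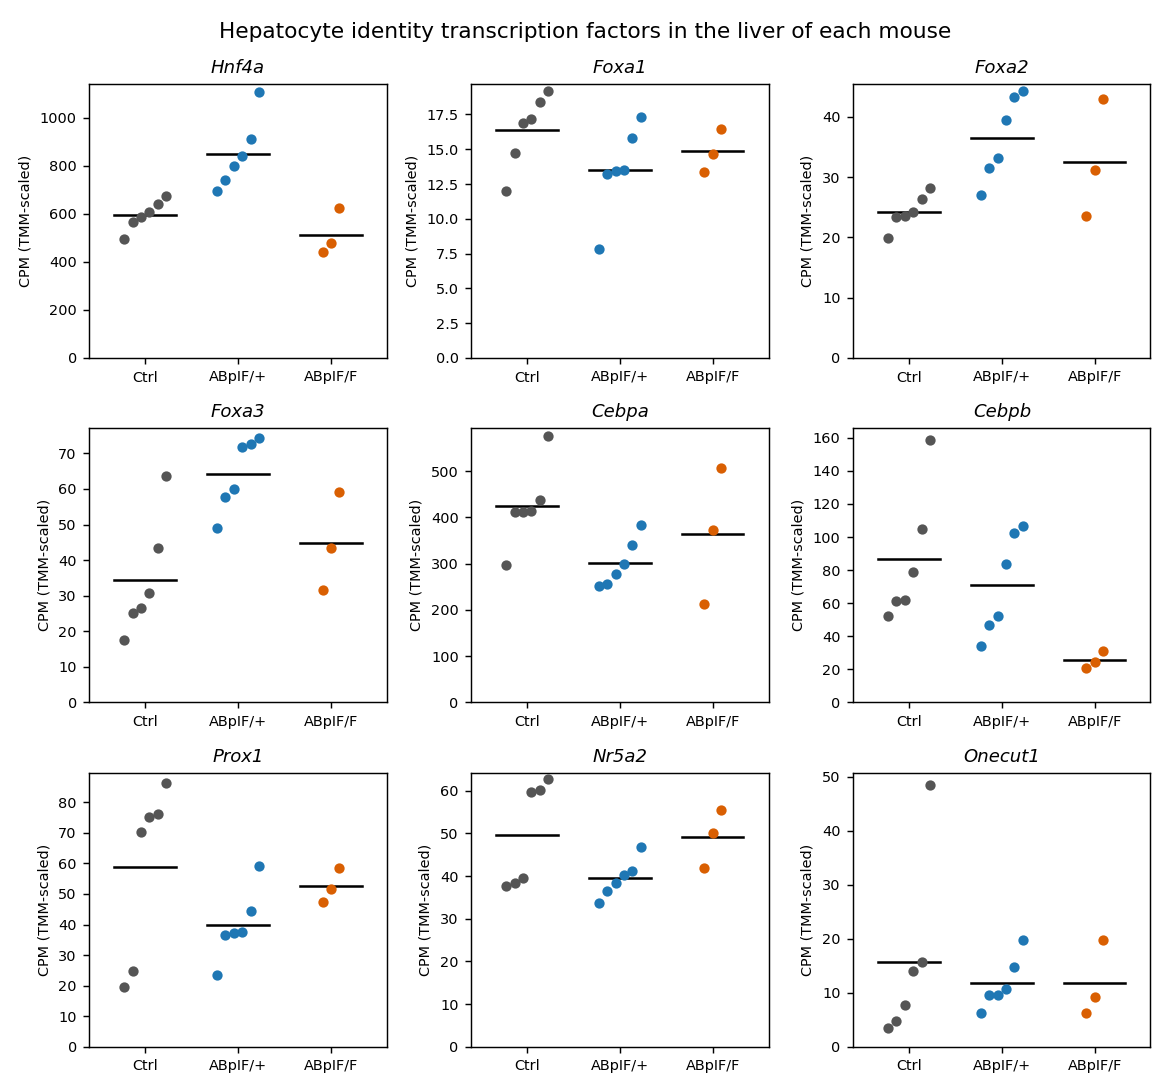
CPM of each factor in the liver of each mouse (points, sorted within a group) with the group mean (line), for 6 Ctrl, 6 ABpIF/+ and 3 ABpIF/F mice, each panel starting at 0. *Hnf4a* of ABpIF/+ (694 to 1108) and *Cebpb* of ABpIF/F (21.0 to 30.9) stand apart from both other groups, and Ctrl mice split widely for *Prox1* and *Foxa3*.

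Of the forkhead factors, *Foxa2* was higher in ABpIF/+ than in Ctrl livers, by less than 2-fold. *Foxa2*, needed for bile acid homeostasis and lipid metabolism in the adult liver, had lowest, median and highest CPM of 19.8, 23.9 and 28.2 in Ctrl and 27.1, 36.3 and 44.3 in ABpIF/+, and 23.5, 31.2 and 43.0 in the ABpIF/F mice. The ABpIF/+ mice overlapped Ctrl in 1 mouse each way, BG30 and malpa458, and the ABpIF/F mice overlapped both other groups. The log2 fold change was 0.59 ± 0.14 (adjusted p = 0.00327) in ABpIF/+ vs Ctrl, and 0.42 with a 95% interval from 0.07 to 0.78 (adjusted p = 0.103) in ABpIF/F vs Ctrl. Over the alternatives the *Foxa2* difference of ABpIF/+ vs Ctrl was 0.41 to 0.66, with an adjusted p from 0.00129 to 0.231. ABpIF/+ and ABpIF/F differed by 0.16, with an interval from -0.20 to 0.53.

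The *Foxa2* gene (Entrez 15376) is on the minus strand of chromosome 2 from 148042877 to 148046969, and the promoter of its most upstream RefSeq start is shown because it holds the other HNF6 match, in capitals:
*Foxa2*, chr2:148046920-148047219, minus strand: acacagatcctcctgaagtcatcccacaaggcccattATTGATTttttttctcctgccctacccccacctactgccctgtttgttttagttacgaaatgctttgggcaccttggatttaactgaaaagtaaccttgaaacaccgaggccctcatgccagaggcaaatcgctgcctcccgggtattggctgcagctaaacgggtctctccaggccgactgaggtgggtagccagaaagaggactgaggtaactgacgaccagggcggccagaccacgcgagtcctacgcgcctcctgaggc

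*Foxa3*, the forkhead factor with the highest level in adult liver, had 17.5, 28.7 and 63.6 CPM (lowest, median, highest) in Ctrl, 48.9, 66.0 and 74.3 in ABpIF/+, and 31.7, 43.5 and 59.0 in the ABpIF/F mice. Only the Ctrl mouse malpa387, at 63.6, reached the ABpIF/+ range, and BG3, at 43.3, was the next Ctrl mouse. The log2 fold change of ABpIF/+ vs Ctrl was 0.90 ± 0.26 (adjusted p = 0.0186), with a 95% interval from 0.34 to 1.46. Without malpa387 it was 1.17 with an adjusted p of 0.000271, past both thresholds. Over all alternatives this log2 fold change ran from 0.57 to 1.36, with an adjusted p from 3.53e-05 to 0.736. In ABpIF/F vs Ctrl it was 0.38, with an interval from -0.30 to 1.05 (adjusted p = 0.556). *Foxa1*, which acts beside *Foxa2* in the developing liver, had 12.0, 17.0 and 19.2 CPM in Ctrl, 7.85, 13.5 and 17.3 in ABpIF/+, and 13.4, 14.7 and 16.5 in ABpIF/F. All groups overlapped, and the log2 fold changes were -0.28 (interval -0.60 to 0.04) in ABpIF/+ vs Ctrl and -0.14 (interval -0.53 to 0.25) in ABpIF/F vs Ctrl.

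Of the C/EBP factors, *Cebpb* set the ABpIF/F livers apart. *Cebpb* is the member of the family that is induced in regeneration and in the acute phase response. Its CPM were 21.0, 24.5 and 30.9 in the ABpIF/F mice, below 52.2, 70.6 and 159 (lowest, median, highest) in Ctrl and below 34.3, 67.7 and 106 in ABpIF/+. No ABpIF/F mouse overlapped a mouse of either other group, while Ctrl and ABpIF/+ overlapped widely. Groups did not overlap for 31.6% of the 12316 genes in ABpIF/F vs Ctrl and for 1 of the 9 factors.

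The fitted difference of *Cebpb* in ABpIF/F vs Ctrl was -1.76 ± 0.44 on the log2 scale (adjusted p = 0.0119), with a 95% interval from -2.71 to -0.82, and that of ABpIF/+ vs ABpIF/F was 1.48 ± 0.43 (adjusted p = 0.0285), with an interval from 0.55 to 2.41. These are 0.294-fold and 2.78-fold, and both adjusted p-values are above 0.01. In ABpIF/+ vs Ctrl the difference was -0.29, with an interval from -0.99 to 0.42. Of 13 alternative settings, 6 put *Cebpb* past both thresholds in ABpIF/F vs Ctrl and 3 in ABpIF/+ vs ABpIF/F, and 1 more in each did so only by loosening them to an adjusted p under 0.05 with any fold. It also passed in ABpIF/F vs Ctrl without the Ctrl mouse malpa458 (-1.87, adjusted p = 0.00936) and without the ABpIF/+ mouse BG175 (-1.82, adjusted p = 0.00452), and in ABpIF/+ vs ABpIF/F without BG175 (1.66, adjusted p = 0.00929). Over all alternatives its adjusted p in ABpIF/+ vs ABpIF/F ran from 0.000333 to 0.57, and the log2 fold change from 1.09 to 1.66. In ABpIF/F vs Ctrl its adjusted p ran from 1.04e-05 to 0.342, and the log2 fold change stayed between -2.64 and -1.42. The clock score, high in ABpIF/F mice, was also high in the Ctrl mouse malpa387, whose *Cebpb* was 62.2 CPM, and its part in the result was not tested beyond the fit with the score as a covariate, where the log2 fold change was -1.42 (adjusted p = 0.342).

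*Cebpb* (Entrez 12608) is a gene without introns on the plus strand of chromosome 2 from 167688915 to 167690418, and its exon shares 312 bases with exons of *Tmem189* on the other strand. Its promoter is given as that of the factor with the largest difference, and it was 80.7% G and C and held none of these 5 motifs, so it has no capitals:
*Cebpb*, chr2:167688665-167688964, plus strand: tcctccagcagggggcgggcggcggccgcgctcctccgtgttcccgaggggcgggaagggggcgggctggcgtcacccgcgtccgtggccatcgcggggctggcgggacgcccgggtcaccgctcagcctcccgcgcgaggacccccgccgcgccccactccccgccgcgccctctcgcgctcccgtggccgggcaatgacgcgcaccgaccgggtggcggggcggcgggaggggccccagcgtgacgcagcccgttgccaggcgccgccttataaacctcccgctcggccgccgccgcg

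*Cebpa*, which holds hepatocytes in a quiescent, metabolically active state, had 297, 413 and 575 CPM (lowest, median, highest) in Ctrl, 252, 288 and 384 in ABpIF/+, and 213, 372 and 507 in the ABpIF/F mice. Of the Ctrl mice only malpa387, at 297 CPM, lay within the ABpIF/+ range, and the ABpIF/F mice spread over nearly the whole range. The log2 fold change was -0.49 ± 0.18 in ABpIF/+ vs Ctrl (adjusted p = 0.0497), with a 95% interval from -0.87 to -0.12, and -0.22 in ABpIF/F vs Ctrl, with an interval from -0.69 to 0.24. The ABpIF/F mouse with the highest *Cebpa*, BG183, had the lowest *Cebpb*.

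Ratios between factors within each liver do not depend on the scaling between libraries. Counts of *Cebpa* were 24.2, 8.70 and 12.1 times those of *Cebpb* in the ABpIF/F mice BG183, BG38 and BG90, against 3.62 to 7.88 times in Ctrl and 2.49 to 9.94 times in ABpIF/+. All 3 ABpIF/F mice were above all Ctrl mice, and BG175 of ABpIF/+ lay within their range. The mean log2 ratio was 3.77 ± 0.75 (SD, n = 3) in ABpIF/F and 2.38 ± 0.45 (n = 6) in Ctrl, a difference of 1.39. A two-sided exact permutation test gave p = 0.0119, the smallest that 84 arrangements allow, and 0.0536 after adjustment over 9 tests. Against ABpIF/+, at 2.19 ± 0.69, the exact permutation p was 0.0357, adjusted 0.107.

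The ratio of *Foxa1* to *Foxa3* was lowest in ABpIF/+ livers. Its log2 value was -2.27 ± 0.52 (SD, n = 6) in ABpIF/+, -0.96 ± 0.68 (n = 6) in Ctrl and -1.55 ± 0.39 (n = 3) in ABpIF/F. The difference of ABpIF/+ from Ctrl was -1.31, and the two-sided exact permutation p was 0.00433, adjusted 0.039. The adjusted p rose to between 0.0536 and 0.0682 when any 1 of the ABpIF/+ mice was left out. The Ctrl mouse BG3, at -1.85, lay within the ABpIF/+ range of -3.21 to -1.80, malpa387, at -1.79, was just above it, and the other 4 Ctrl mice were between -0.69 and -0.25. ABpIF/F differed from Ctrl by -0.59 (exact permutation p = 0.190, adjusted 0.295). For *Foxa2* to *Foxa3* no comparison had an adjusted p under 0.05, the differences being -0.43, -0.06 and -0.37 in ABpIF/+ vs Ctrl, ABpIF/F vs Ctrl and ABpIF/+ vs ABpIF/F.

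**Figure D4:**
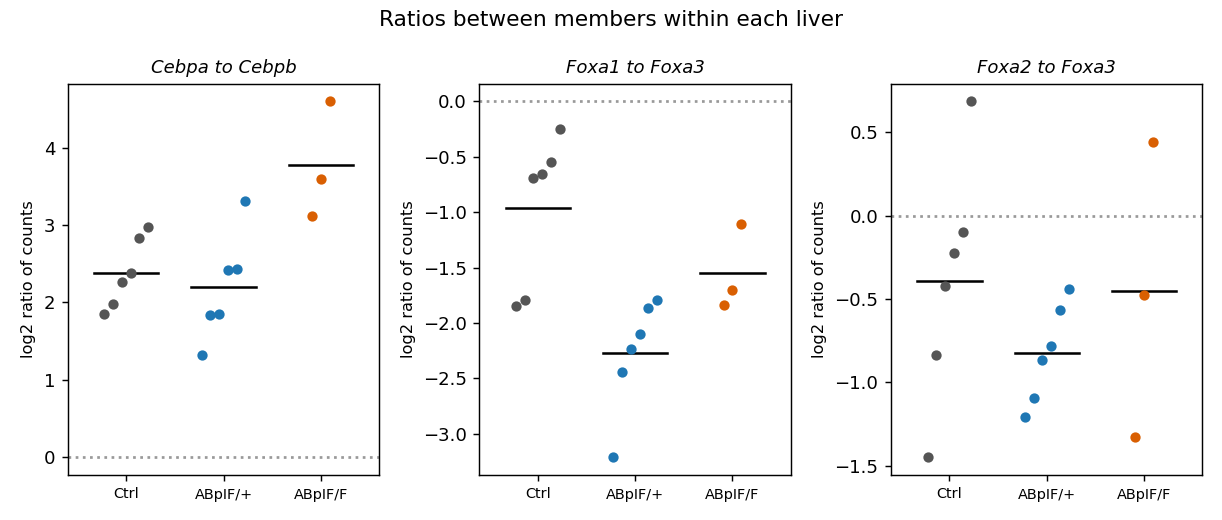
Log2 ratio of the counts of 2 factors within the liver of each mouse (points, sorted within a group) with the group mean (line), for 6 Ctrl, 6 ABpIF/+ and 3 ABpIF/F mice. *Cebpa* to *Cebpb* is highest in ABpIF/F (mean 3.77), and *Foxa1* to *Foxa3* is lowest in ABpIF/+ (mean -2.27), where 2 of 6 Ctrl mice lie close to ABpIF/+.

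The nuclear receptor *Nr5a2*, which with HNF4A drives the genes of bile acid synthesis, had 37.7, 49.6 and 62.8 CPM (lowest, median, highest) in Ctrl, 33.7, 39.3 and 46.7 in ABpIF/+, and 42.0, 50.2 and 55.4 in the ABpIF/F mice. The groups overlapped. The log2 fold change was -0.33 in ABpIF/+ vs Ctrl (95% interval -0.62 to -0.04, adjusted p = 0.0922) and -0.01 in ABpIF/F vs Ctrl (interval -0.37 to 0.34).

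*Prox1*, a homeobox co-repressor of HNF4A and NR5A2, split the Ctrl mice. Its CPM were 19.6 in BG3 and 24.9 in malpa387, and 70.1 to 86.3 in the other 4 Ctrl mice, a gap that no Ctrl mouse filled. All ABpIF/+ mice, at 23.4 to 59.0, and all ABpIF/F mice, at 47.3, 51.5 and 58.5, lay below the 4 higher Ctrl mice, and none was below BG3. With all Ctrl mice the log2 fold change was -0.56 (95% interval -1.31 to 0.19, adjusted p = 0.308) in ABpIF/+ vs Ctrl and -0.16 (interval -1.08 to 0.75) in ABpIF/F vs Ctrl. With the strain label as a covariate these differences turned to 1.02 and 1.42.

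*Onecut1*, whose protein binds the promoters of glucose and bile acid enzymes, had the widest spread, with a coefficient of variation of 107% in Ctrl against 10.4% for *Hnf4a*. The Ctrl mouse malpa459 had 48.5 CPM and the other Ctrl mice 3.53 to 15.8, while ABpIF/+ had 6.34, 10.1 and 19.8 (lowest, median, highest) and the ABpIF/F mice 6.29, 9.31 and 19.7. All groups overlapped, and the intervals of the log2 fold changes, -1.71 to 0.86 in ABpIF/+ vs Ctrl and -2.02 to 1.17 in ABpIF/F vs Ctrl, included a 2-fold lower level in the first and a 2-fold difference either way in the second. Without malpa459 both differences turned to 0.35. The exons of *Onecut1* share 2171 bases with those of *Gm20649* on the same strand, for which the table had no row of that symbol.

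The Ctrl mice BG3 and malpa387 were on the same side of all 4 other Ctrl mice for 4 of the 9 factors, above them for *Foxa3* and below them for *Prox1*, *Nr5a2* and *Onecut1*. That is 44.4% of the factors, and the same held for 46.1% of the 12316 genes, so the share among the factors was near the background. BG3 differs by its strain label and malpa387 by its clock score. The part of either in these values cannot be told apart from that of single mice.

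Several close relatives of these factors passed both thresholds. Of 9 paralogs, 2 rose and 2 fell in ABpIF/+ vs Ctrl, where 4.69% and 5.35% of all genes did so, and 1 rose and 1 fell in ABpIF/F vs Ctrl, where 4.55% and 2.38% did. *Onecut2*, which overlaps with *Onecut1* in liver development, had 80.3, 131 and 159 CPM (lowest, median, highest) in Ctrl, a median of 29.3 and a highest value of 47.5 in ABpIF/+, and 26.3, 35.3 and 56.9 in ABpIF/F. Neither *Braf* group overlapped Ctrl, and *Onecut2* fell by 1.92 in ABpIF/+ vs Ctrl (adjusted p = 2.32e-06) and by 1.62 in ABpIF/F vs Ctrl (adjusted p = 4e-04) on the log2 scale. *Hnf4g*, a paralog of *Hnf4a* known mainly from gut and kidney, was low in every group, at 0.738 ± 0.412 CPM (SD, n = 6) in Ctrl, 2.81 ± 0.924 (n = 6) in ABpIF/+ and 4.03 ± 0.423 (n = 3) in ABpIF/F. It rose by 1.92 (adjusted p = 4.97e-05) and 2.44 (adjusted p = 2.54e-05) on the log2 scale, and no mouse of either *Braf* group overlapped Ctrl.

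*Cebpd*, which is induced with *Cebpb* in the acute phase response, rose in ABpIF/+ alone, from 5.16 ± 1.72 CPM in Ctrl to 16.5 ± 6.21, a log2 fold change of 1.68 (adjusted p = 0.000298), and had 5.41 ± 1.95 CPM in ABpIF/F. The ABpIF/+ and ABpIF/F mice differed by 1.61 (adjusted p = 0.00569), in the same direction as *Cebpb*. *Cebpe*, a granulocyte factor, fell by 1.93 in ABpIF/+ vs Ctrl (adjusted p = 1.89e-07) and was 1.19 lower in ABpIF/+ than in ABpIF/F on the log2 scale (adjusted p = 0.001). *Cebpg*, a dimer partner without an activation domain, was 0.46 higher in ABpIF/+ vs Ctrl (adjusted p = 0.00269), short of 2-fold, and *Ddit3* and *Prox2* passed no threshold. *Onecut3* was at 0 in all Ctrl mice and *Nr5a1* in all ABpIF/+ mice, and neither passed.

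Among 24 other liver-enriched transcription factors, 1 rose and 4 fell in ABpIF/+ vs Ctrl, and 1 rose and 4 fell in ABpIF/F vs Ctrl, with medians of -0.32 and -0.49 on the log2 scale. Without BG38, 2 fell in ABpIF/F vs Ctrl, and without malpa458, 2 fell in ABpIF/+ vs Ctrl. *Tbx3*, a target of Wnt signalling, fell by 1.52 and 1.84, and *Creb3l3*, a regulator of triglyceride metabolism, by 1.13 and 1.07. In ABpIF/+ livers *Nr0b2* (SHP), the bile acid-induced repressor, fell by 1.11 and *Mlxipl* (ChREBP), the glucose-responsive factor, by 1.04, and *Ppargc1a*, a coactivator of gluconeogenesis, rose by 1.43. In ABpIF/F livers the nuclear receptors *Ppara* and *Nr1i3* (CAR) fell by 1.66 and 1.64, and *Gata6* rose by 1.23. In ABpIF/+ vs ABpIF/F, 5 of the 24 were higher in ABpIF/+ and the rest did not pass the test, where 1.76% of all genes were higher and 5.49% lower. These 5 were *Ppara* (1.06), *Nr1i3* (1.06), *Klf15* (1.12), *Esrra* (1.36) and *Ppargc1a* (1.36), and the count was 2 without BG38 and 3 without BG40 or BG55.

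Many transcription factors of bile duct and progenitor cells rose. Of 16 such genes, 8 rose and 2 fell in ABpIF/+ vs Ctrl, and 7 rose and 1 fell in ABpIF/F vs Ctrl, with medians of 0.90 and 1.07, where 4.69% and 5.35% of all genes rose and fell in the first and 4.55% and 2.38% in the second. *Sox9*, the defining factor of bile duct cells, had 1.97, 2.99 and 3.85 CPM (lowest, median, highest) in Ctrl, 11.8, 17.2 and 25.1 in ABpIF/+, and 22.8, 44.0 and 49.1 in the ABpIF/F mice, with no overlap of either *Braf* group with Ctrl. It rose by 2.61 and 3.70 on the log2 scale. *Tead4*, a partner of YAP, rose by 3.01 and 3.91 from a mean of 0.256 CPM in Ctrl. *Sox4* and the epithelial factor *Elf3* rose by 3.41 and 2.76 in ABpIF/F vs Ctrl. *Id1*, a BMP target, and *Foxq1* rose by 3.08 and 2.05 in ABpIF/+ vs Ctrl, while *Ehf*, also an epithelial factor, fell by 2.08. *Ehf* was low in both groups, at 0.449 to 1.16 CPM in Ctrl and 0.0387 to 0.405 in ABpIF/+. The other gene of this list that fell in ABpIF/+, and the one that fell in ABpIF/F, was *Onecut2*, which is also counted among the paralogs. Of 7 factors of the mesenchymal transition, 2 fell in ABpIF/+ vs Ctrl, *Zeb2* by 1.55 and *Prrx1* by 2.92, from means of 10.8 and 0.616 CPM in Ctrl.

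Genes known as targets of the factors moved in both directions. Several genes stand on more than 1 of these lists, so the counts are not independent. Among the 12316 genes, 17.6% were called in either direction in ABpIF/+ vs Ctrl, 12.6% in ABpIF/F vs Ctrl and 12.2% in ABpIF/+ vs ABpIF/F. These shares are the background for all the target lists. Of 20 targets of HNF4A, 2 rose and 5 fell in ABpIF/+ vs Ctrl and 2 rose and 9 fell in ABpIF/F vs Ctrl, with medians of -0.26 and -1.02. Without the ABpIF/F mouse BG38, 4 fell in ABpIF/F vs Ctrl. The transferrin gene *Tf* (listed under its older symbol) rose by 1.47 and 1.45, and *Apoa4* by 1.51 and 1.64. Those that fell were led by the bile acid enzymes *Cyp8b1*, by 5.96 and 4.08, and *Cyp7a1*, by 2.63 and 5.09, and by the hepatic lipase gene *Lipc*, by 2.73 and 2.21. *Slc10a1*, which takes up bile acids, fell by 1.30 in ABpIF/F and was 1.01 higher in ABpIF/+ than in ABpIF/F.

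Of 9 targets of NR5A2, 1 rose and 4 fell in ABpIF/+ vs Ctrl and 1 rose and 3 fell in ABpIF/F vs Ctrl, with medians of -0.09 and -0.45. Besides *Cyp8b1* and *Cyp7a1*, *Cyp7b1* fell by 2.74 and 2.47 in both, and *Nr0b2* in ABpIF/+, while *Apom* rose by 1.05 in ABpIF/+ and *Scarb1*, the HDL receptor, by 1.27 in ABpIF/F. Of 7 targets of ONECUT1, 1 rose and 1 fell in ABpIF/+ vs Ctrl and 1 rose and 2 fell in ABpIF/F vs Ctrl, with medians of 0.17 and -0.30. *Cyp7a1* fell in both and *G6pc* in ABpIF/F, while the targets that rose are not named here. *Pfkfb1*, a glycolysis regulator, was 1.12 higher in ABpIF/+ than in ABpIF/F.

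Several metabolic targets of FOXA and C/EBP factors were higher in ABpIF/+ than in ABpIF/F livers. Of 8 FOXA targets, 2 rose and 1 fell in ABpIF/+ vs Ctrl and 1 rose and 4 fell in ABpIF/F vs Ctrl, with medians of 0.14 and -0.72. Without BG38, 1 fell in ABpIF/F vs Ctrl. *Igfbp1*, which is induced by fasting, rose by 5.45 and 3.85, from a mean of 54.5 CPM in Ctrl to 2376 and 786. *Tat*, the tyrosine aminotransferase gene, rose by 1.06 in ABpIF/+ and fell by 1.81 in ABpIF/F. Of 10 metabolic targets of C/EBP factors, 2 rose in ABpIF/+ vs Ctrl (*Tat* and *Arg1*), 3 fell in ABpIF/F vs Ctrl (*Tat*, *Pck1* and *G6pc*), and 4 were higher in ABpIF/+ than in ABpIF/F, the rest not passing the test. The last 4 were *Tat* (2.86), the gluconeogenic *Pck1* (2.10), the glycogen synthase gene *Gys2* (1.74) and the urea cycle gene *Arg1* (1.44). *G6pc*, for the final enzyme of gluconeogenesis, fell by 2.36 in ABpIF/F vs Ctrl, and *Pck1* by 1.70. In ABpIF/+ vs Ctrl, 1 FOXA target and 1 metabolic C/EBP target rose when any 1 of malpa387, malpa454, malpa458, malpa459, BG175, BG55 and BG88 was left out, and without malpa387, 5 of the metabolic targets fell in ABpIF/F vs Ctrl.

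Some acute phase targets of C/EBP factors rose in both *Braf* groups. Of 8 such genes, the same 3 rose in each comparison with Ctrl, the haptoglobin gene *Hp* (by 2.08 in ABpIF/+ and 1.99 in ABpIF/F), *Lcn2* (by 5.68 and 6.23) and *Il1rn* (by 1.75 and 3.49). The medians over the list were 0.60 and 2.49 and each rested on 1 mouse, since without BG40 the first was -0.69 and without BG90 the second was -0.69, with the counts of called genes at 3 both times. *Orm1*, *Orm2*, *Saa1* and *Saa2* did not pass the test against Ctrl. All of them were above every Ctrl mouse in BG40 and BG90, and below every Ctrl mouse in all other mice of both *Braf* groups. For *Orm2*, Ctrl mice had 16.7 to 27.6 CPM, BG40 had 89.5 and the other ABpIF/+ mice 0.479 to 15.9. *Lcn2* and *Il1rn* are also expressed by neutrophils and macrophages. In ABpIF/+ vs ABpIF/F only *Il1rn* passed the test, and it was 1.74 lower in ABpIF/+.

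**Figure D5:**
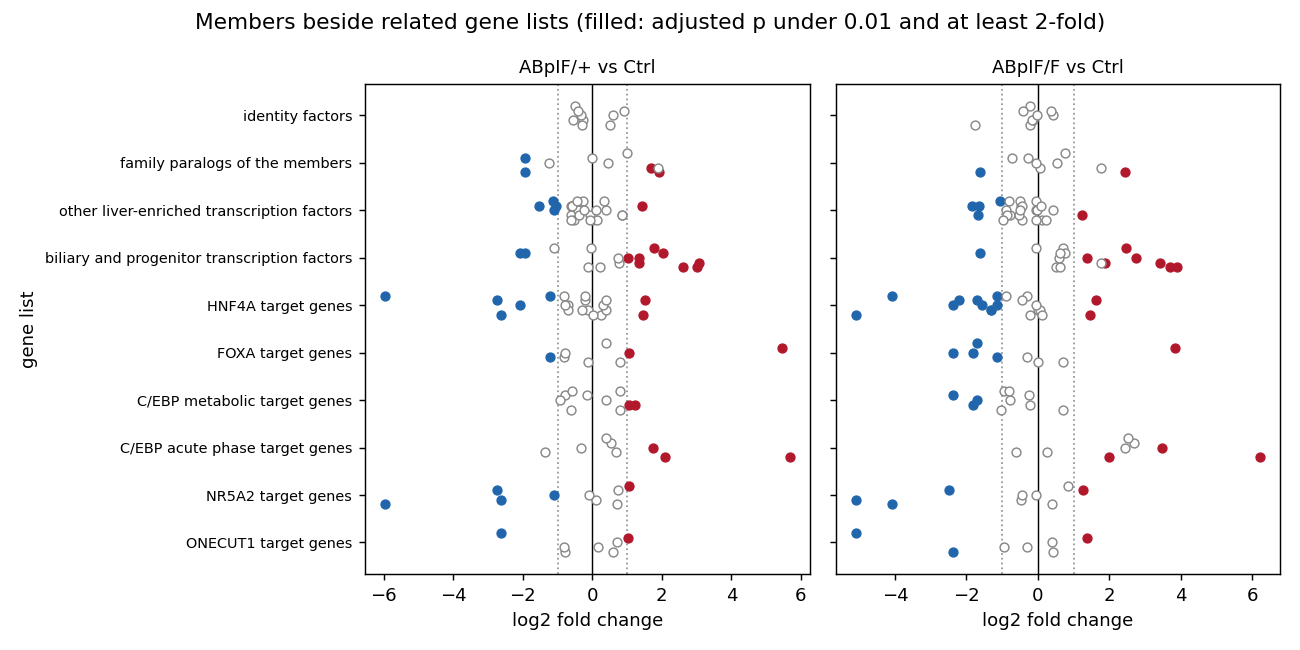
Log2 fold changes of the 9 factors and of 9 related gene lists against Ctrl in ABpIF/+ (left) and ABpIF/F (right), 1 point per gene, filled where the adjusted p was under 0.01 and the difference at least 2-fold (red higher, blue lower), with dotted lines at 2-fold. The identity factors have 0 filled points, while the paralogs, the biliary factors and the HNF4A targets have filled points on both sides.

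Markers of the liver's cell types moved beside these values. The background for their counts is the 17.6% and 12.6% of the 12316 genes called in ABpIF/+ vs Ctrl and ABpIF/F vs Ctrl. Of 12 hepatocyte markers, 2 rose in ABpIF/+ vs Ctrl and 4 in ABpIF/F vs Ctrl (2 without BG90), the rest not passing the test. Their log2 fold changes ran from -0.81 to 2.21 in the first and from -1.03 to 1.67 in the second. Their summed level was 130673 to 175788 CPM in Ctrl, 237325 to 327128 in ABpIF/+ and 192625 to 302297 in ABpIF/F. The largest part was the gene for albumin, at 76790 to 104893 CPM in Ctrl, 128868 to 186385 in ABpIF/+ and 100260 to 181278 in ABpIF/F. Of 8 cholangiocyte markers, 2 rose and 1 fell in ABpIF/+ vs Ctrl and 6 rose in ABpIF/F vs Ctrl. Their summed levels were 49.7 to 88.0 CPM in Ctrl, 55.0 to 176 in ABpIF/+ and 237 to 1197 in ABpIF/F. In Ctrl and ABpIF/F most of each sum was *Spp1*. *Spp1* had 29.2 to 60.0 CPM in Ctrl, 16.1 to 118 in ABpIF/+ and 175 to 1081 in ABpIF/F, whereas *Krt19* had at most 4.57 CPM in any mouse. The cholangiocyte markers stand beside *Foxa1*, *Foxa2* and *Onecut1*, which bile duct cells share. Stellate cell and fibroblast markers (6 of 8) and macrophage markers (5 of 8) fell in ABpIF/+ vs Ctrl, with summed levels of 58.7 to 125 against 207 to 275 CPM and of 120 to 192 against 281 to 377 CPM.

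Beside *Cebpb*, which was lowest in ABpIF/F, macrophage markers summed to 227 to 551 CPM in ABpIF/F with a median log2 fold change of 0.15 vs Ctrl, and 7 of 8 neutrophil markers rose (4 without BG38), their sum being 4.86 to 95.7 CPM against 2.44 to 4.23 in Ctrl. Beside *Prox1*, lymphatic endothelial markers summed to 66.1 to 101 CPM in Ctrl, 30.7 to 64.2 in ABpIF/+ and 114 to 188 in ABpIF/F. Of these 5 markers, 2 rose in ABpIF/F vs Ctrl (0 without BG38). The largest part of this sum in every mouse was *Reln*, which is also counted among the stellate cell and fibroblast markers. *Reln* had 44.5 to 57.0 CPM in Ctrl, 13.8 to 40.7 in ABpIF/+ and 84.9 to 120 in ABpIF/F. Of the 7 endothelial markers 2 fell in ABpIF/+ vs Ctrl, and of the 8 lymphocyte markers 3 fell. Of the 14 clock genes, 3 rose in ABpIF/+ vs Ctrl and 4 fell in ABpIF/F vs Ctrl (0 without BG90 and 7 without malpa387). Of 8 pancreas acinar markers, 6 had 0 counts in all Ctrl mice, and their sum was 12.4 to 28.6 CPM in Ctrl, 11.2 to 15.4 in ABpIF/+ and 19.3 to 28.1 in ABpIF/F. The part of any of these cell types in the values of the 9 factors was not tested.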

How the data were processed

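RNA was measured in livers of 15 mice. The authors made stranded mRNA libraries, aligned trimmed reads to mm10 (GRCm38) with HISAT2 and obtained counts per gene from featureCounts 2.0.8. The raw counts as deposited, 1 column per mouse, were used. The labels list 23 samples, 8 mice being named by 2 samples, and columns were grouped by mouse name. A second table repeats 10 of the columns (0 counts differed) and gives the symbols. Its 5 columns of per-sample values under bare numbers, and its columns of the authors' own fold changes and p-values, were not used.

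The analysis ran in R (version 4.3.3). Counts of all 27179 genes, 1319 without a symbol, were scaled by TMM in edgeR (version 4.0.16, with limma version 3.58.1), which fitted a single robust quasi-likelihood model of the 3 groups in the older form of the method. DESeq2 (version 1.42.0) was an alternative. Scripts were tested on simulated data. Calls needed an adjusted p under 0.01 together with a log2 fold change of 1 or more either way. Intervals are 95% intervals of that model. CPM were computed with the TMM-scaled library sizes. Ratios were compared by two-sided exact permutation tests over mice, adjusted over 9 tests. Positions and exon lengths came from GENCODE M21 on GRCm38, and promoters from RefSeq on GRCm38.p6. *Tf*, *G6pc* and *Arntl* were matched by older symbols.

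The factors and lists were chosen with earlier results of these data known. The named genes are the 9 factors, their paralogs, *Sox9*, *Icmt*, and up to 4 called genes per list and comparison with the largest fold change and at least 1 CPM in a group. *Mlxipl*, *Prrx1*, *Tf*, *Apoa4*, *Apom*, *Hnf4aos*, *Reln*, *Spp1*, *Krt19*, *Orm1*, *Orm2*, *Saa1* and *Saa2* were named after their values were seen. Since no factor was called, no genes of like profile were named. Some genes of the lists and a further searched motif are not reported here. Alternatives were RLE and total-count scaling, DESeq2, filterByExpr, the edgeR 4 method, no robust estimation, only the groups compared, other thresholds, the other table, a clock score or strain label as a covariate, log2 CPM for the ratios, leaving out each mouse and, added after the data were seen, leaving out BG3 and malpa387 together and, for the lists, each mouse.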

Additional observations from a re-analysis of the deposited data

Results flagged for a closer look

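*Onecut1* in the Ctrl mouse malpa459 was 48.5 CPM, and the next Ctrl mouse had 15.8 CPM. The gap to the nearest mouse was 0.727 of the whole range of the 6 Ctrl mice, above the limit of Dixon's test. This was the 1 value picked out among 24 groups of 6 mice tested, and chance picks out about 1 group in 20.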

How the results depend on the processing

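Libraries left out singly gave 0 to 1 called factors in each comparison, and the ratio differences stood between -0.41 and -0.01, 0.98 and 1.71, and -1.90 and -1.16 for *Cebpa* to *Cebpb* in ABpIF/+ vs Ctrl, ABpIF/F vs Ctrl and ABpIF/+ vs ABpIF/F. They were -1.49 to -1.12, -0.81 to -0.44 and -0.87 to -0.51 for *Foxa1* to *Foxa3*, and -0.65 to -0.22, -0.51 to 0.37 and -0.81 to 0.0774 for *Foxa2* to *Foxa3*. The number of factors called in ABpIF/F vs Ctrl was 1 in place of 0, each time *Cebpb*, with total counts, with genes passing filterByExpr, without robust estimation, with only the groups compared, with the strain label as a covariate, with DESeq2 and at an adjusted p under 0.05 with any fold. In ABpIF/+ vs ABpIF/F it was 1 with filterByExpr, without robust estimation and with DESeq2, and 2 at an adjusted p under 0.05 with any fold (*Hnf4a* and *Cebpb*). In ABpIF/+ vs Ctrl it was 4 at an adjusted p under 0.05 with any fold (*Hnf4a*, *Foxa2*, *Foxa3* and *Cebpa*), and 1, *Foxa3*, with the clock score as a covariate (1.16) and with the 4 Ctrl mice other than BG3 and malpa387 (1.36), a choice made after seeing the data. With those 4 Ctrl mice the *Foxa2* to *Foxa3* difference of ABpIF/+ vs Ctrl was -0.81.

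No factor was called in any comparison, so every reversed direction of a factor necessarily concerned a difference that was not called. *Onecut1* in ABpIF/+ vs ABpIF/F turned to -0.00906 with RLE, -0.17 with total counts, -0.0185 with only the groups compared, -0.00966 with DESeq2 and -2.29 with the clock score, and *Foxa2* there to -2.02e-05 with total counts. With the clock score, ABpIF/F vs Ctrl became -0.57 for *Foxa3*, 0.26 for *Cebpa*, 1.16 for *Prox1*, 0.43 for *Nr5a2* and 1.61 for *Onecut1*. With the strain label, ABpIF/+ vs Ctrl became 0.17 for *Foxa1*, 1.02 for *Prox1*, 0.0414 for *Nr5a2* and 1.74 for *Onecut1*, and ABpIF/F vs Ctrl 0.31, 1.42, 0.36 and 1.74. With single mice left out, *Cebpa* ranged from -0.54 to 0.0514 in ABpIF/F vs Ctrl and from -0.54 to 0.0427 in ABpIF/+ vs ABpIF/F, *Foxa2* in the latter from -0.0268 to 0.41, and *Nr5a2* in ABpIF/F vs Ctrl from -0.11 to 0.0888. *Onecut1* then ranged from -0.66 to 0.35 in ABpIF/+ vs Ctrl, from -1.02 to 0.35 in ABpIF/F vs Ctrl and from -0.30 to 0.59 in ABpIF/+ vs ABpIF/F. The cause of these changes was not tested. The strain fit rests on BG3, the only Ctrl mouse with the label of the *Braf* groups. Under the settings that kept every mouse or left out both BG3 and malpa387, 42 counts and ratio differences and 314 fold changes of single factors kept their direction and side of the threshold. Under the same settings 14 counts of called factors changed and 1 ratio difference passed its threshold. Of the fold changes, 19 reversed and 18 passed the thresholds of their setting. No paired analysis was possible because the mouse names in the labels do not pair mice across groups. With 3 ABpIF/F mice, 2-fold differences of *Hnf4a*, *Cebpb*, *Prox1*, *Foxa3* and *Onecut1* lay within the intervals of at least 1 comparison.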
